A study of Homo sapiens with 33 samples.

Results

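The genes described here encode lysosomal enzymes and lysosomal membrane proteins, and were followed in lymphoma cells that lost ALK or were given ALK inhibitors. Their members are 45 named genes, chosen by symbol: 12 cathepsins and other proteases, 15 glycosidases, sulfatases and phosphatases, 7 lipid hydrolases with their helper proteins, and 11 membrane, acidification and related proteins including granulin. They were chosen with earlier results of these data known. On the array, 43 of them had a probe set annotated to that gene alone, among 11963 genes so named, and these 43 had 85 of 22215 probe sets. After a filter on low signal, 42 were tested. The signal of LGMN, the cysteine protease legumain, lay below that filter (1.5 to 12.0 on the 33 arrays). GLB1 had 1 probe set, which was annotated to several genes, and neither it nor ACP5 was tested here.

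Lysosomes are acidic organelles in which hydrolases break down proteins, glycans and lipids that arrive by endocytosis or autophagy. The proton pump V-ATPase acidifies them, most soluble enzymes reach them through mannose 6-phosphate receptors, and membrane glycoproteins of the LAMP family line them. The transcription factors TFEB, TFE3 and MITF bind a short E-box-like motif in the promoters of many lysosomal genes, and the kinase complex mTORC1 holds TFEB in the cytoplasm in fed cells.

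The study asked what the tyrosine kinase ALK controls in a T-cell lymphoma that often carries an active ALK fusion, anaplastic large cell lymphoma (ALCL). Messenger RNA was measured on 33 Affymetrix HG-U133A arrays, 3 for each of 11 groups, in the ALK-positive human ALCL lines TS, subcloned from Sup-M2, and Su-DHL1. In the hairpin experiment (21 arrays, 7 groups), cells carried an shRNA under a doxycycline-inducible promoter, delivered by lentivirus and sorted by fluorescence, so that doxycycline at 1 microg/ml switched it on. The groups were TS cells with ALK hairpin A5 and doxycycline for 84 h, TS cells with the mutated hairpin A5M and doxycycline for 84 h, TS cells with A5 left uninduced (84 h), TS cells with A5 induced or uninduced at 72 h, and Su-DHL1 cells with A5 induced or uninduced at 72 h. In the inhibitor experiment (12 arrays, 4 groups), TS cells were kept for 6 h with the pyrrolocarbazole-derived compounds A3 or A2 at 300 nM, with A1, or without compound (U). The design text names A1 a mock compound and U a diluent control, whereas the sample descriptions call A1 an inhibitor and U untreated; A1 was taken here as the control of A3 and A2. Induced and uninduced A5 came from the same sorted cells, whereas A5M cells were a separate transduction, and nothing in the labels says that the 3 samples of a group were separate cultures. The p-values then cover only the spread among these 3 samples, and that spread may be technical.

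Values are the deposited MAS5 signal, an intensity per probe set scaled by array (trimmed means 200.06 to 200.08, array medians 54.8 to 69.3). Within a group, arrays correlated at 0.969 to 0.985. ALK itself had signals of 201.1, 253.9 and 289.0 in TS cells with induced A5 at 84 h, 1667.2, 1652.0 and 1739.0 with A5M, and 1927.3, 2090.7 and 2100.3 in uninduced cells. Its mean log2 fold change over the 3 induced against uninduced settings was -2.54 ± 0.06 (SE, limma adjusted p = 9.58e-20). For A3 and A2 against A1 it was -0.37 ± 0.11 (limma adjusted p = 0.0175). The ALCL markers TNFRSF8 and IL2RA and the general leukocyte marker PTPRC had signals above 175 on every array. Of the T-cell markers, CD3D was high (463.3 to 1416.6), whereas CD2 and CD4 reached at most 66.9 and 71.0, CD3E 148.6 and CD5 187.8, and CD7 stayed at or below 17.3, so that the T-cell label rests on CD3D here. B-cell markers summed to 101.5 to 248.9. In bulk RNA, fewer cells of a type and less RNA per cell cannot be told apart.

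Promoter windows at hand, based on RefSeq's annotation of GRCh38.p14, covered 31 members with 47 windows of 300 bases (250 before and 50 after a start). The other members were not searched. The windows were searched for the motif bound by TFEB and its relatives, in its core and in a longer form, on both strands at once because each form is its own reverse complement. The core CACGTG stood in 11 of 47 windows (23.4%) of 10 members, against 9.18% of the windows of all tested genes. These 10 include ACP5, whose mRNA was not tested. The longer TCACGTGA stood in 6 windows (12.8%) of 5 members, CLN3, CTSA, GAA, LAMP1 and MCOLN1, against 1.64%. The core lies inside the longer form, so these counts overlap, and a match describes letters in a window, not binding. ARSB, CD63 and CLN3, called higher in the hairpin average, also hold the core but are not printed. The stretches printed here hold these matches in 6 members whose mRNA passed the test in at least 1 hairpin or inhibitor comparison, and they let the spacing and number of cores be seen. The capitals mark each CACGTG core. They run 5′ to 3′ on the gene's strand and lie at chr19:7522544-7522623 (plus strand), chr17:80101481-80101580 (plus strand), chr20:45891255-45891334 (plus strand), chr13:113297039-113297238 (plus strand), chr6:31862822-31862971 (minus strand) and chr11:1763928-1764007 (minus strand).
MCOLN1: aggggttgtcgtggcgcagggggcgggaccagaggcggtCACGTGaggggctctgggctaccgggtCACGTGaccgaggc
GAA: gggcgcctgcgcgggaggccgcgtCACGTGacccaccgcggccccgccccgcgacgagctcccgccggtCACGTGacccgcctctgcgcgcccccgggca
CTSA: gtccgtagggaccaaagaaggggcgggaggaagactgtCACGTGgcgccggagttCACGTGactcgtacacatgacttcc
LAMP1: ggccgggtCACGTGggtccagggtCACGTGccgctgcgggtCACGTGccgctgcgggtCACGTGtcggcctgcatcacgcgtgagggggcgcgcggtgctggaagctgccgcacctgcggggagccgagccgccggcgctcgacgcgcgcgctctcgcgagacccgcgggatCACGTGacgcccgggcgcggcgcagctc
NEU1: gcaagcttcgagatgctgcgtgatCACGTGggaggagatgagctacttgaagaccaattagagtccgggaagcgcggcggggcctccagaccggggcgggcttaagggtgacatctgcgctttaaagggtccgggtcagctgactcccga
CTSD: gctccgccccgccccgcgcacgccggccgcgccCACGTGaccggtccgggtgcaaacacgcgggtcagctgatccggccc
LAMP1 had 5 cores in this stretch, MCOLN1, GAA and CTSA had 2 each, and NEU1 and CTSD had 1 each.

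When the ALK hairpin was switched on, most lysosomal genes went up. Averaged over TS cells at 84 h, TS cells at 72 h and Su-DHL1 cells at 72 h, 29 of 42 tested members were higher (69.0%, against 29.1% of all 9101 genes tested) and 3 were lower (7.14%, against 21.7%), at a limma adjusted p below 0.05. The median log2 fold change of the 42 was 0.45, against 0.07 for all genes. Because the members were chosen with earlier results of these data known, these contrasts with all genes are descriptions and not an independent test. Fold changes were taken after adding 11 to each signal, so those of weak probe sets are understated. Before the test, 37 members exceeded its threshold on all 21 arrays and CTSS, the cysteine protease cathepsin S, was the single tested member to do so on fewer than 3 of the 9 uninduced arrays. CTSS was not called.

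**Figure D1:**
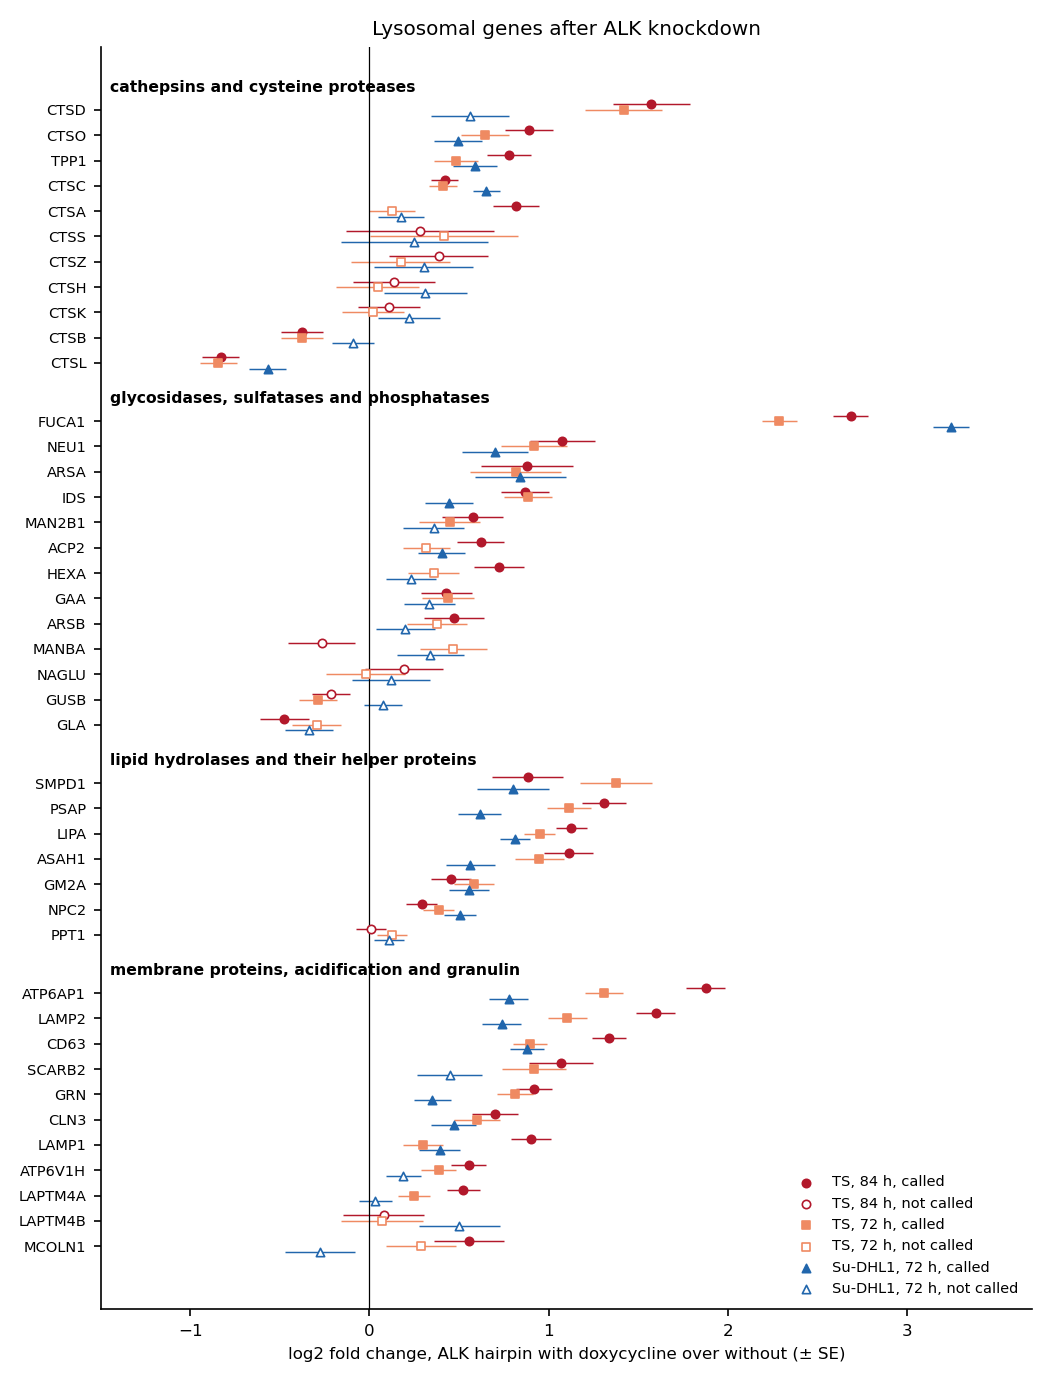
Log2 fold change (± SE) of the 42 tested lysosomal genes, ALK hairpin A5 with over without doxycycline, in TS cells after 84 h (circles), TS cells at 72 h (squares) and Su-DHL1 cells at 72 h (triangles), grouped by role. Filled symbols mark limma adjusted p below 0.05. FUCA1 stands apart at 2.69, 2.29 and 3.25, most other members lie right of 0, and CTSL lies left of 0 in all 3 settings.

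Among the glycosidases, sulfatases and phosphatases, 9 of 13 tested members were higher and 1 was lower in the hairpin average. FUCA1, the fucosidase that removes fucose from glycoproteins, moved furthest of the 42. Its signals were 1814.4, 1682.0 and 1798.1 in TS cells with induced A5 at 84 h, 221.4, 207.9 and 230.8 with A5M, and 267.8, 235.4 and 294.0 in uninduced cells. At 72 h they were 1233.7, 1255.9 and 1160.0 in induced TS cells, against 230.7, 245.1 and 244.1 in uninduced ones. The induced arrays stood far above both kinds of control, which lay close together. In Su-DHL1 cells FUCA1 had 784.0, 782.9 and 668.7 when induced, against 76.2, 61.7 and 68.0 when uninduced, again without overlap. The average log2 fold change was 2.74 ± 0.06 (SE), 6.69-fold (limma adjusted p = 7.14e-21). NEU1, the sialidase, had 270.2, 348.6 and 322.2 in induced TS cells at 84 h, against 129.3, 125.9 and 175.5 in uninduced cells, groups that did not overlap (average 0.90 ± 0.11, limma adjusted p = 1.3e-07). ARSA, the arylsulfatase that degrades sulfatide, averaged 0.85, and IDS, which removes sulfate from heparan and dermatan sulfate, averaged 0.73. MAN2B1 (a mannosidase, 0.46), ACP2 (acid phosphatase, 0.45), HEXA (the alpha subunit of hexosaminidase, 0.44), GAA (acid glucosidase, 0.40) and ARSB (another arylsulfatase, 0.35) rose by less. The exception was GLA, alpha-galactosidase A. It had 391.3, 288.0 and 335.1 in induced and 417.8, 548.4 and 455.6 in uninduced TS cells at 84 h, and 326.2, 359.7 and 388.5 in induced and 437.6, 435.5 and 450.0 in uninduced TS cells at 72 h. In Su-DHL1 cells its signals were 383.3, 404.8 and 323.4 induced and 471.2, 437.5 and 501.2 uninduced, so every induced array lay below every uninduced array of its setting. Its average change was -0.37 ± 0.08 (limma adjusted p = 0.000319). With A5M it had 354.7, 406.5 and 534.6, which overlapped with induced A5, and GLA was not called against A5M (-0.33, limma adjusted p = 0.0504). GUSB, beta-glucuronidase (-0.14, limma adjusted p = 0.0543), MANBA, beta-mannosidase (0.18), and NAGLU, which trims heparan sulfate (0.10), were not called.

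All but 1 of the 7 lipid hydrolases and helper proteins rose in the hairpin average, and each of those 6 was also called in each of the 3 settings. SMPD1, acid sphingomyelinase, had signals of 167.3, 120.7 and 130.9 in induced TS cells at 84 h, 84.7, 54.6 and 94.5 with A5M, and 51.8, 84.1 and 77.8 in uninduced cells. After 72 h it had 133.9, 176.8 and 151.8 in induced TS cells, against 63.5, 40.5 and 54.9 in uninduced ones, and in Su-DHL1 cells 191.9, 161.6 and 134.5 against 90.1, 94.5 and 79.2. Induced and uninduced groups did not overlap in any setting, and the average change was 1.02 ± 0.11 (SE), 2.03-fold (limma adjusted p = 6.08e-08). PSAP, prosaposin, is cut into the saposins that help sphingolipid hydrolases reach their substrates. Its signals were 1218.9, 981.5 and 1080.4 in induced TS cells at 84 h, 375.4, 371.4 and 436.7 with A5M, and 393.1, 460.7 and 447.4 in uninduced cells. At 72 h they were 752.9, 787.0 and 690.8 in induced TS cells, against 392.2, 318.5 and 307.0 in uninduced ones, and in Su-DHL1 cells 649.9, 559.2 and 786.4 against 457.4, 389.0 and 435.5. The groups were again separate, and PSAP changed by 1.01 ± 0.07 on average (2.02-fold, limma adjusted p = 1.36e-11). LIPA, the acid lipase that hydrolyses cholesteryl esters, had 1265.4, 1249.5 and 1148.5 in induced TS cells at 84 h, 481.2, 521.2 and 450.5 with A5M, and 513.9, 581.0 and 564.8 in uninduced cells. At 72 h it had 879.1, 1006.3 and 923.9 in induced TS cells, against 485.4, 459.5 and 491.4 in uninduced ones, and in Su-DHL1 cells 789.1, 767.0 and 849.6 against 432.8, 481.1 and 441.5. No induced array of LIPA fell within the range of the uninduced arrays, and its change averaged 0.96 ± 0.05 (1.95-fold, limma adjusted p = 6.04e-14). ASAH1 (acid ceramidase, 0.87), GM2A (the activator of ganglioside breakdown, 0.53) and NPC2 (a cholesterol carrier, 0.39) also rose. For ASAH1, 1 further probe set went the other way, at -0.34 (limma adjusted p = 0.0475), while another was at 0.83 and the one used at 0.87. PPT1, which removes palmitate from proteins, was not called (0.08).

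The membrane, acidification and granulin group held no member that fell, and 9 of its 11 rose in the hairpin average. ATP6AP1, an accessory subunit of the V-ATPase, had signals of 1342.5, 1210.4 and 1399.7 in induced TS cells at 84 h, 422.5, 403.0 and 365.3 with A5M, and 376.0, 318.6 and 358.2 in uninduced cells. The 72 h signals were 898.0, 1059.7 and 741.3 in induced TS cells, against 364.6, 359.0 and 334.3 in uninduced ones, and in Su-DHL1 cells 863.0, 803.3 and 891.6 against 523.0, 490.0 and 466.1. All induced arrays were above all their uninduced counterparts, for an average of 1.32 ± 0.06 (SE), 2.50-fold (limma adjusted p = 1.18e-14). LAMP2, a membrane glycoprotein that also serves as receptor in chaperone-mediated autophagy, had 302.3, 293.1 and 318.9 in induced TS cells at 84 h, 80.5, 94.5 and 95.5 with A5M, and 94.3, 87.4 and 98.3 in uninduced cells. At 72 h it had 185.6, 184.6 and 184.3 in induced TS cells, against 77.0, 73.8 and 90.1 in uninduced ones, and in Su-DHL1 cells 405.3, 417.2 and 428.2 against 245.5, 225.5 and 266.9. The groups were separate in each setting and LAMP2 averaged 1.15 ± 0.06 (2.21-fold, limma adjusted p = 1.58e-13). CD63, a tetraspanin of late endosomes and lysosomes, had 5480.7, 5102.2 and 5923.1 in induced TS cells at 84 h, 2706.9, 2827.8 and 2784.7 with A5M, and 2294.4, 2183.8 and 2023.6 in uninduced cells. The signals after 72 h were 5182.0, 4383.8 and 5111.0 in induced TS cells, against 2543.8, 2630.2 and 2678.4 in uninduced ones, and in Su-DHL1 cells 7330.7, 6035.9 and 5535.4 against 3244.5, 3338.5 and 3620.4. Its average was 1.04 ± 0.05 (2.05-fold, limma adjusted p = 7.5e-14), again with no overlap. SCARB2, which carries glucocerebrosidase to the lysosome (0.81), GRN, the progranulin precursor (0.69), CLN3, mutated in Batten disease (0.59), and LAMP1, the close relative of LAMP2 (0.53), rose by less. So did ATP6V1H, a subunit of the V-ATPase (0.38), and LAPTM4A, a small transmembrane protein (0.27). LAPTM4B (0.22) and the calcium channel MCOLN1 (0.19) were not called in the average, although MCOLN1 was higher in TS cells at 84 h (0.56 ± 0.19, limma adjusted p = 0.0241), where the groups overlapped. In Su-DHL1 cells every induced array of MCOLN1 lay below every uninduced one, with no call (-0.28, limma adjusted p = 0.346).

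Proteases were the most mixed group: of 11 tested cathepsins and relatives, 5 rose and 2 fell in the hairpin average. CTSD, the main aspartic protease of the lysosome, had signals of 203.4, 163.9 and 170.4 in induced TS cells at 84 h, 40.1, 29.4 and 41.4 with A5M, and 41.7, 52.0 and 66.5 in uninduced cells. At 72 h it had 112.0, 171.0 and 118.2 in induced TS cells, against 52.3, 45.5 and 31.2 in uninduced ones, and in Su-DHL1 cells 93.5, 108.3 and 102.2 against 91.9, 44.9 and 65.5. The separation was wide in TS cells and narrow in Su-DHL1 cells, where 1 uninduced array came within 2 signal units of the lowest induced one. The average was 1.19 ± 0.12 (SE), 2.27-fold (limma adjusted p = 2.02e-08), and the change in Su-DHL1 cells alone (0.56) was not called. CTSO (0.68), TPP1, a tripeptidyl peptidase (0.62), CTSC, which activates the serine proteases of cytotoxic granules (0.49), and CTSA, which protects NEU1 in a complex (0.37), also rose. CTSL, a cysteine endopeptidase, fell. It had 657.6, 742.4 and 773.4 in induced TS cells at 84 h, 1534.3, 1648.0 and 1913.5 with A5M, and 1461.4, 1181.6 and 1253.6 in uninduced cells. After 72 h it had 639.8, 715.9 and 774.3 in induced TS cells, against 1329.1, 1249.1 and 1260.8 in uninduced ones, and in Su-DHL1 cells 2395.9, 2224.1 and 1939.3 against 3190.9, 3050.4 and 3480.5. Every induced array was below every uninduced array of its setting, and the average was -0.75 ± 0.06 (limma adjusted p = 1.91e-10). CTSB, a related cysteine protease, had 2236.9, 2073.3 and 2578.8 in induced and 2917.3, 2949.3 and 3051.5 in uninduced TS cells at 84 h, and 1510.0, 1506.0 and 1619.3 in induced and 1957.4, 1752.2 and 2363.3 in uninduced TS cells at 72 h. In Su-DHL1 cells it had 2913.1, 2857.0 and 2623.4 induced and 2825.9, 2735.7 and 3424.7 uninduced, which overlap. Its average change was -0.28 ± 0.07 (limma adjusted p = 0.0012). With A5M it had 2438.8, 2498.1 and 3329.3, again overlapping with induced A5, and CTSB was not called against A5M (-0.25, limma adjusted p = 0.0899). CTSH (0.17), CTSK (0.12), CTSS (0.32) and CTSZ (0.29) were not called.

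**Figure D2:**
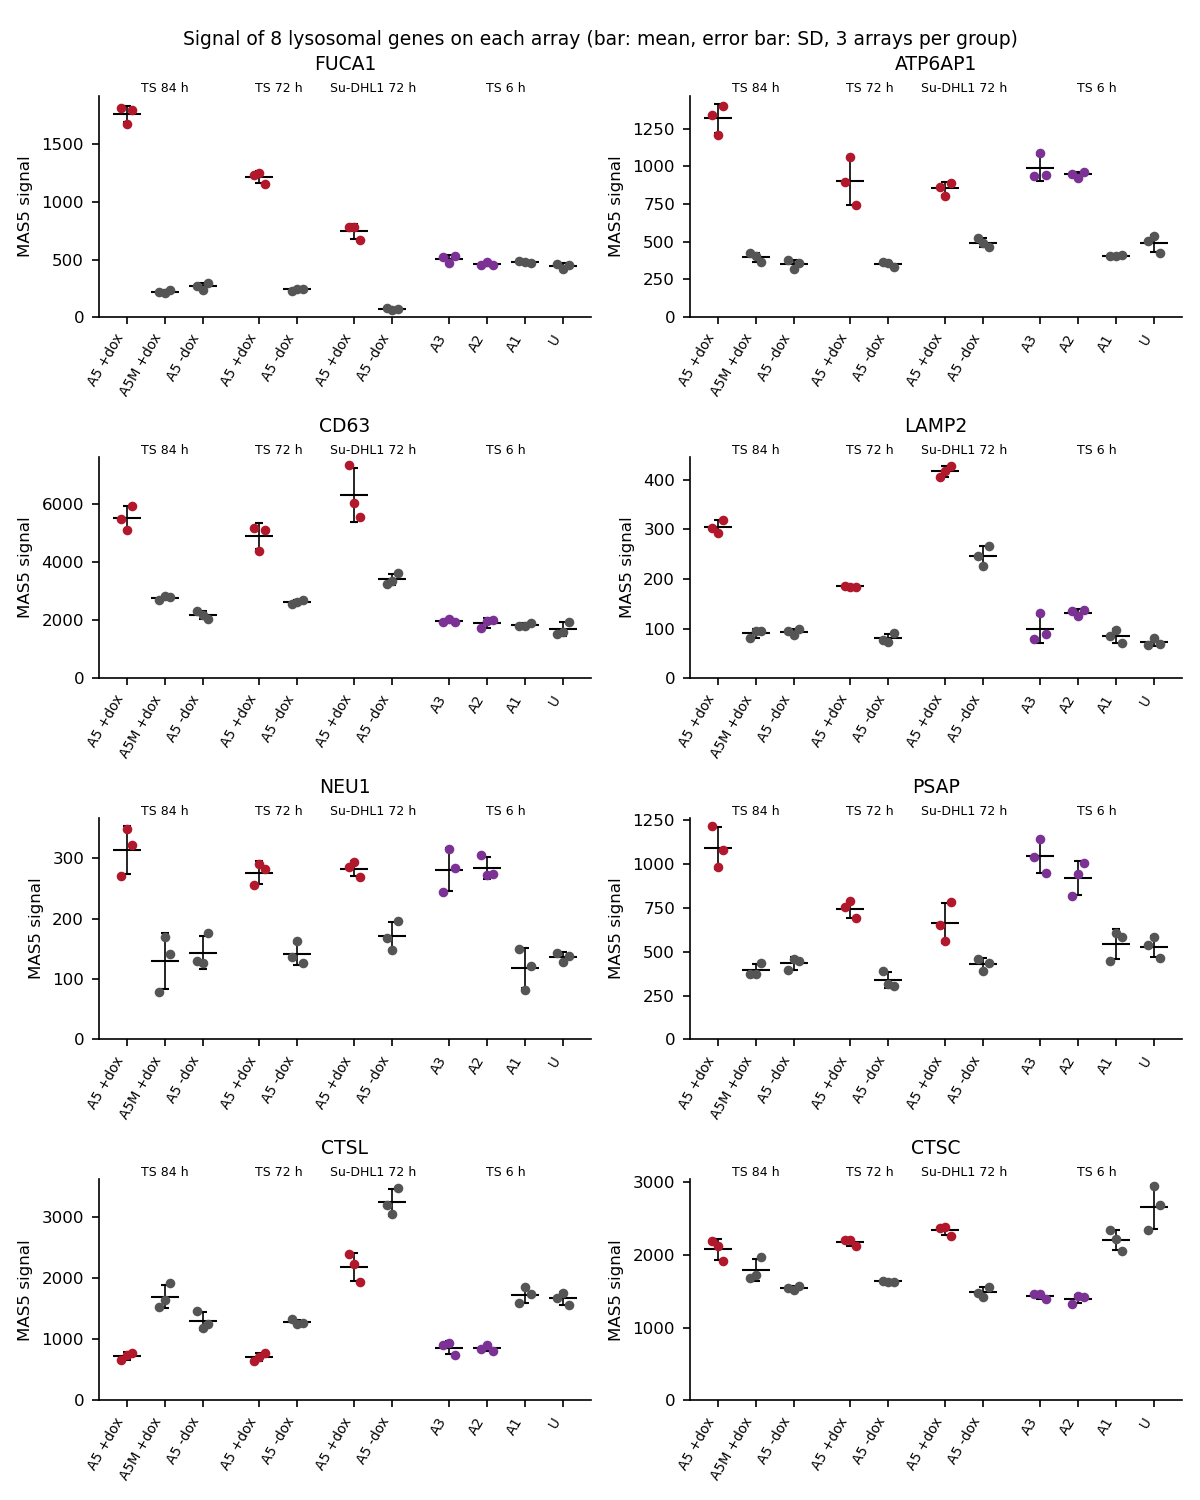
MAS5 signal of 8 lysosomal genes on each of the 33 arrays (points), with the mean (bar) and SD (error bar) of the 3 arrays of a group. Red marks the induced ALK hairpin A5, purple the inhibitors A3 and A2, and grey the controls (A5M, uninduced A5, A1 and U). FUCA1, CD63 and LAMP2 are high with the hairpin and were not called in the inhibitor average. CD63 with A3 and LAMP2 with A2 still lay above every A1 array. ATP6AP1, NEU1 and PSAP are high with both, CTSL is low with both, and CTSC is high with the hairpin and low with the inhibitors.

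Setting by setting, 30 members were higher and 3 lower in induced TS cells at 84 h (background 21.8% higher and 18.8% lower), 25 and 3 in TS cells at 72 h (18.9% and 15.2%), and 20 and 1 in Su-DHL1 cells at 72 h (13.9% and 10.7%). All 3 induced arrays lay above all 3 uninduced arrays for 28, 29 and 28 of the 42 members in these settings, against 24.8%, 28.5% and 23.6% of all genes. In each of the 3 settings 19 members were called higher (45.2%, against 9.24% of all genes): the proteases CTSC, CTSO and TPP1, the enzymes ARSA, FUCA1, IDS and NEU1, the lipid group's ASAH1, GM2A, LIPA, NPC2, PSAP and SMPD1, and the membrane group's ATP6AP1, CD63, CLN3, GRN, LAMP1 and LAMP2. CTSL was called lower in all 3 (2.38%, against 8.33%). The log2 ratio of 3′ to 5′ ACTB probe sets, 1 sign of RNA quality, moved with the hairpin in TS cells. At 84 h it was 1.27 ± 0.02 in induced cells, 1.52 ± 0.08 with A5M and 1.54 ± 0.05 in uninduced cells (SD, n = 3 each). At 72 h it was 1.32 ± 0.05 in induced and 1.59 ± 0.11 in uninduced cells. In Su-DHL1 cells it was 1.36 ± 0.08 in induced and 1.39 ± 0.03 in uninduced cells. The same measure for GAPDH was 0.86 ± 0.03 in induced TS cells, 0.89 ± 0.07 with A5M and 0.87 ± 0.06 in uninduced cells at 84 h. At 72 h the GAPDH value was 0.83 ± 0.03 in induced and 0.87 ± 0.02 in uninduced TS cells. In Su-DHL1 cells it was 0.86 ± 0.03 in induced and 0.88 ± 0.02 in uninduced cells. With the ACTB ratio as a covariate, 17 members were called in TS cells at 84 h (20.9% of all genes), 14 at 72 h (15.7%) and 22 in Su-DHL1 cells (23.6%).

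Myeloid cells are rich in lysosomes, and the summed signal of 11 myeloid markers also moved with the hairpin in TS cells. It ranged from 10782 to 13962 in induced cells, 4838 to 5446 with A5M and 3741 to 4051 in uninduced cells at 84 h, and from 9008 to 9993 in induced and 4302 to 4438 in uninduced cells at 72 h. In Su-DHL1 cells the sum was 2206 to 2590 in induced and 2672 to 2788 in uninduced cells. Of the 8 markers tested there, CSF1R (1.35, limma adjusted p = 4.68e-07) and ITGAX (1.14, limma adjusted p = 0.0283) rose. CD163 fell (-0.52, limma adjusted p = 5.22e-05), with a background of 13.9% higher and 10.7% lower. CD163, S100A8 and S100A9 reached the highest signals in the sum. For A5 against A5M in TS cells at 84 h, S100A8 (2.39) and S100A9 (1.93) were among 4 markers that rose. CD163 was the 1 that fell there (-1.34, limma adjusted p = 3.66e-12). In the hairpin average 4 of the 8 markers tested rose and 1 fell, against 29.1% and 21.7% of all genes. CD14, LYZ and FCGR1A never passed the filter, with signals of at most 21.5, 4.2 and 26.1. The 7 epithelial and stromal markers summed to 502.3 to 562.5 in induced TS cells, 303.7 to 395.8 with A5M and 317.6 to 371.2 in uninduced cells at 84 h, to 462.4 to 560.9 in induced and 306.6 to 488.4 in uninduced TS cells at 72 h, and to 604.9 to 745.4 in induced and 465.5 to 624.6 in uninduced Su-DHL1 cells. Of 6 tested, DCN (1.02, limma adjusted p = 4.74e-07) and KRT18 (0.72, limma adjusted p = 0.00113) rose in the hairpin average. That share was near the 29.1% of all genes. EPCAM never passed the filter (at most 19.2). The part of either marker set in the result was not tested.

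The mutated hairpin separates doxycycline and hairpin expression from loss of ALK, as far as separate transductions allow. In TS cells at 84 h, A5 against A5M gave 29 members higher and 1 lower (background 23.3% and 20%), with a median log2 fold change of 0.77 against 0.06 for all genes. The 84 h arrays with induced A5 serve in this comparison and in that with uninduced A5, so both comparisons share those samples. FUCA1 (2.94), CTSD (1.99), ATP6AP1 (1.70), LAMP2 (1.64) and IDS (1.48) had the largest increases against A5M, and CTSL was the member that fell (-1.21 ± 0.10, limma adjusted p = 1.17e-09). All 3 A5M arrays lay below all 3 uninduced arrays for 6 members, FUCA1, CTSD and IDS among them (9.42% of all genes). They lay above for 4 members (9.08%). A5M against uninduced A5 called 4 members, CTSL (0.38) and CD63 (0.36) higher and GM2A (-0.40) and IDS (-0.61) lower (background 3.24% and 3.75%). The median of the 42 was -0.12, against 0.00 for all genes. The count of 4 called members came down to 2 when uninduced replicate 2, uninduced replicate 3 or A5M replicate 2 was left out.

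Su-DHL1 cells began with a different lysosomal profile. In uninduced cells at 72 h, 11 members were higher in Su-DHL1 than in TS cells and 3 were lower (background 10.8% and 10.4%). Of the 11, IDS (0.38) kept its call in 4 of 15 alternatives (adjusted p up to 0.557 by limma). TPP1 lost its call in 2 alternatives, and ASAH1, CD63 and ATP6AP1 in 1 each. LAMP2 had signals of 245.5, 225.5 and 266.9 in Su-DHL1, against 77.0, 73.8 and 90.1 in TS (1.49 ± 0.11 SE, limma adjusted p = 5.11e-10). CTSL had 3190.9, 3050.4 and 3480.5 in Su-DHL1, against 1329.1, 1249.1 and 1260.8 in TS (1.33 ± 0.10, limma adjusted p = 1.61e-09). Neither pair of groups overlapped. GRN had 801.8, 734.0 and 761.6 in Su-DHL1, against 451.3, 488.5 and 428.5 in TS (0.73 ± 0.10, limma adjusted p = 9.18e-06). SMPD1 had 90.1, 94.5 and 79.2 in Su-DHL1, against 63.5, 40.5 and 54.9 in TS (0.64 ± 0.20, limma adjusted p = 0.022). Both were separate between lines, SMPD1 by less. SMPD1 lost the call with the mean of its probe sets, with the ACTB ratio and without TS replicate 2 or Su-DHL1 replicate 1 or 2 (adjusted p up to 0.414 by limma). FUCA1 went the other way, with 76.2, 61.7 and 68.0 in Su-DHL1, against 230.7, 245.1 and 244.1 in TS (-1.66 ± 0.10, limma adjusted p = 1.59e-11). PPT1 had 1304.1, 1163.6 and 1323.9 in Su-DHL1, against 1835.2, 1697.4 and 1539.0 in TS (-0.42 ± 0.08, limma adjusted p = 0.000715). GM2A had 451.8, 422.1 and 365.7 in Su-DHL1, against 557.3, 501.9 and 548.3 in TS (-0.37 ± 0.11, limma adjusted p = 0.0196). These 3 were also separate between lines, but GM2A lost the call with the mean of its probe sets, with the ACTB ratio and without TS replicate 1 or 3 or Su-DHL1 replicate 3 (adjusted p up to 0.288 by limma). With the ACTB ratio as covariate, 9 members were called in place of 14 (11.8% of all genes).

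The response itself differed between lines for 1 member (background 1.68% higher and 1.21% lower in Su-DHL1). FUCA1 rose by 3.25 in Su-DHL1 cells and by 2.29 in TS cells at 72 h, a difference of 0.96 ± 0.14 (SE, limma adjusted p = 0.000158). The induced signals of Su-DHL1 cells stayed below those of TS cells, so the larger fold came with a lower start. For the other 41 members the differences ran from -0.86 (CTSD) upward and none was called. Between 84 h and 72 h in TS cells no member's response differed at an adjusted p below 0.05 by limma, while 8 had an unadjusted p below 0.05 and the smallest adjusted p was 0.0655 (background 0.297% higher and 0.978% lower). With quantile normalization, the replicate block or only the groups compared, the same test called 1 member.

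Many members were also higher after 6 h with the inhibitors. The average of A3 and A2 against A1 called 20 of 42 members higher (47.6%, against 21.9% of all 8594 genes tested) and 2 lower (4.76%, against 16.3%), and the median of the members was 0.29, against 0.03 for all genes. By role, 3 of 11 proteases, 6 of 13 glycosidases, sulfatases and phosphatases, 4 of 7 lipid genes and 7 of 11 membrane genes were higher, and both members that fell were proteases. The log2 ACTB ratio was 1.06 ± 0.15 with A3, 1.05 ± 0.03 with A2, 1.33 ± 0.07 with A1 and 1.18 ± 0.12 in U (SD, n = 3 each). The same measure for GAPDH was 0.94 ± 0.14 with A3, 0.89 ± 0.03 with A2, 0.98 ± 0.10 with A1 and 1.00 ± 0.04 in U. With the ACTB ratio as covariate, the average called 8 of 42 members, a share near the 18.0% of all genes. These were ATP6AP1, ATP6V1H, MCOLN1, NEU1, PSAP and SCARB2 higher, and CTSC and CTSL lower. The others, CTSD, TPP1, NPC2, GAA, GM2A, GRN and LAPTM4A among them, lost the call. The summed myeloid markers were 1496 to 1789 with A3, 1454 to 1567 with A2, 2394 to 2480 with A1 and 2270 to 2478 in U. The part of these markers in the result was not tested.

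ATP6AP1 had signals of 936.6, 1086.3 and 939.6 with A3, 950.4, 925.4 and 962.8 with A2, 404.2, 407.3 and 408.9 with A1, and 505.3, 536.3 and 426.1 in U. NEU1 had 243.9, 315.0 and 283.6 with A3, 305.1, 272.7 and 274.1 with A2, 149.1, 82.3 and 122.1 with A1, and 143.7, 128.0 and 138.9 in U. In both genes every array with an inhibitor exceeded every control array, and the changes were 1.22 ± 0.10 for ATP6AP1 (limma adjusted p = 2.48e-08) and 1.22 ± 0.14 for NEU1 (limma adjusted p = 4.21e-06). MCOLN1, the cation channel through which lysosomes release calcium, had 160.6, 240.1 and 154.4 with A3, 125.9, 145.1 and 183.4 with A2, 84.1, 68.2 and 81.1 with A1, and 79.8, 105.8 and 75.4 in U. It was higher by 0.99 ± 0.16 (limma adjusted p = 0.000116), with no overlap, and was one of 3 members, with MANBA and PPT1, that were called here and not in the hairpin average. MANBA (0.43, limma adjusted p = 0.0434) kept its call in 6 of 18 alternatives, and PPT1 (0.27, limma adjusted p = 0.0233) lost it with the ACTB ratio and without A1 replicate 3 (adjusted p up to 0.273 by limma). PSAP had 1043.6, 1141.0 and 952.2 with A3, 817.1, 941.3 and 1006.8 with A2, 447.8, 606.5 and 581.5 with A1, and 539.5, 585.8 and 464.4 in U. Its groups were separate too (0.84 ± 0.12, limma adjusted p = 2.05e-05), and SCARB2 (0.83), CTSD (0.82), TPP1 (0.62) and NPC2 (0.60) followed.

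CTSL fell with the inhibitors as it had with the hairpin. It had 909.6, 931.9 and 740.2 with A3, 835.1, 905.8 and 815.8 with A2, 1597.1, 1852.6 and 1732.8 with A1, and 1671.6, 1764.1 and 1565.5 in U, with a wide gap between inhibitors and controls. It was 2.01-fold lower than with A1 (SE of the log2 change 0.10, limma adjusted p = 3.87e-07). CTSC turned round: it had 1468.4, 1466.1 and 1391.2 with A3, 1328.9, 1432.7 and 1427.7 with A2, 2342.9, 2219.5 and 2059.7 with A1, and 2346.5, 2953.6 and 2686.1 in U. Every inhibitor array lay below every control array (-0.63 ± 0.09, limma adjusted p = 3.5e-05), although CTSC rose with the hairpin. In TS cells at 84 h, CTSC had 2197.6, 2123.3 and 1911.8 in induced cells, 1688.8, 1723.1 and 1969.3 with A5M, and 1547.2, 1524.1 and 1573.3 in uninduced cells. Induced A5 and A5M overlapped, with a change of 0.21 (limma adjusted p = 0.0264), about the size of that of A5M against uninduced cells (0.21, limma adjusted p = 0.11). FUCA1, furthest moved by the hairpin, had 519.8, 466.2 and 529.7 with A3, 450.4, 476.4 and 454.1 with A2, 486.1, 481.1 and 470.0 with A1, and 462.5, 417.9 and 455.7 in U, groups that overlapped (0.01 ± 0.09, limma adjusted p = 0.955).

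A3 against A1 called 18 members higher and 2 lower (background 18.5% and 14.2%), and A2 against A1 called 17 and 2 (19.1% and 14.3%). With the ACTB ratio as covariate these totals were 11 of 42 for A3 (16.9% of all genes) and 5 of 42 for A2. The share for A2 was below the 15.8% of all genes. Against U, 17 members were higher and 2 lower with A3 (18.8% and 14.9%), and 15 and 2 with A2 (19.7% and 15.4%). CTSL and CTSC were the lower members in all 4 comparisons, which share arrays. A3 against A2, at the same dose and time, was the single compound pair compared between inhibitors and called no member by limma (background 0.0582% higher and 0.0931% lower), while 4 had an unadjusted p below 0.05. The differences lay between -0.40 (LAMP2) and 0.57 (SMPD1), the unadjusted 95% intervals of the 42 members spanned -1.09 to 0.93, and their median half-width was 0.30. SMPD1 had 107.0, 100.5 and 122.5 with A3, 66.9, 63.4 and 81.9 with A2, 62.7, 67.3 and 79.2 with A1, and 53.4, 65.8 and 54.4 in U, and its A3 to A2 difference had a limma adjusted p of 0.302. A1 against U called no member either (background 0.0233% higher and 0.0116% lower), with 5 at an unadjusted p below 0.05 and a smallest adjusted p of 0.405 by limma.

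**Figure D3:**
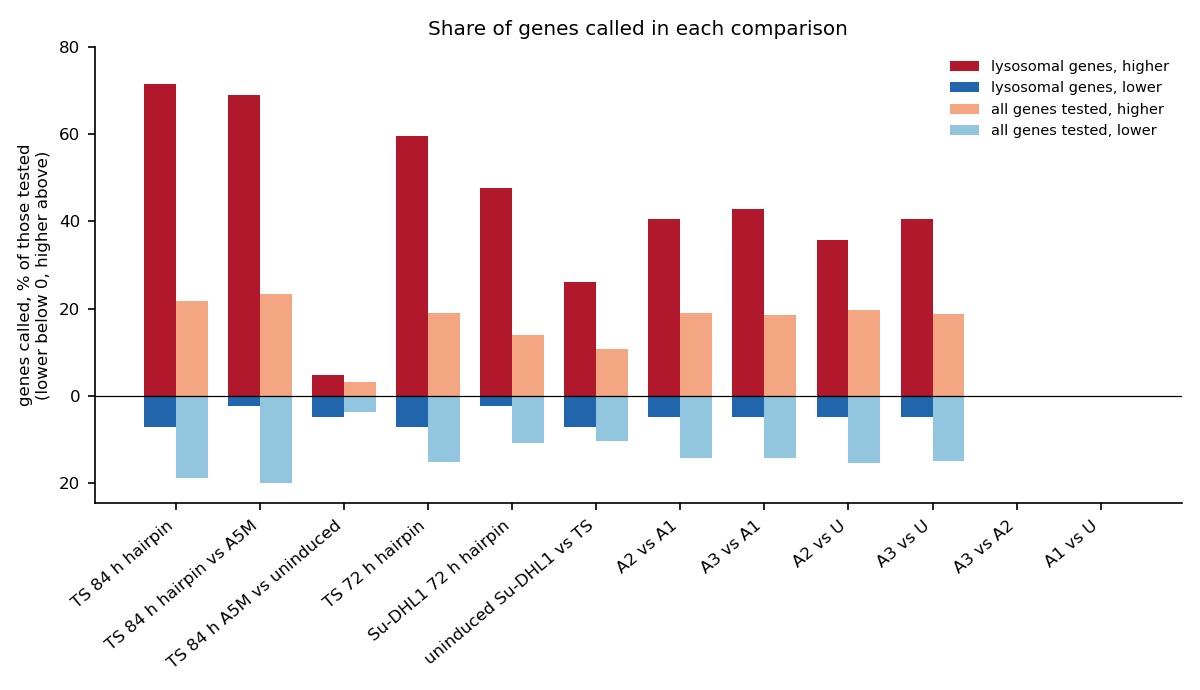
Percent of the 42 tested lysosomal genes and of all genes tested that were called higher (above 0) or lower (below 0) at a limma adjusted p below 0.05, in 12 comparisons. The lysosomal bars reach 71.4% higher in TS cells at 84 h and 42.9% for A3 against A1, above the bars for all genes. They are at 0 for A3 against A2 and A1 against U.

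The hairpin and inhibitor experiments share no arrays. Among the 42 members, 17 were higher in both averages, which is 58.6% of the 29 higher with the hairpin and 85% of the 20 higher with the inhibitors. Of 8485 genes tested in both, 1027 were, or 40.5% and 55.0% of each list. Of those 8485, 2533 were higher with the hairpin and 1868 with the inhibitors, smaller shares than the 29 and 20 of 42 members. With more members higher in each list, a larger overlap follows without closer agreement between the experiments. The 17 were the proteases CTSA, CTSD and TPP1, the enzymes GAA, HEXA, NEU1, ARSA and IDS, the lipid group's PSAP, GM2A and NPC2, and the membrane group's LAPTM4A, SCARB2, CLN3, ATP6AP1, ATP6V1H and GRN. CTSL was lower in both, and CTSC was higher with the hairpin and lower with the inhibitors. Over the 42 members the 2 sets of log2 fold changes correlated at Pearson r = 0.37 and Spearman rho = 0.41, as a description across genes that are not independent, against 0.33 and 0.36 over all genes.

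**Figure D4:**
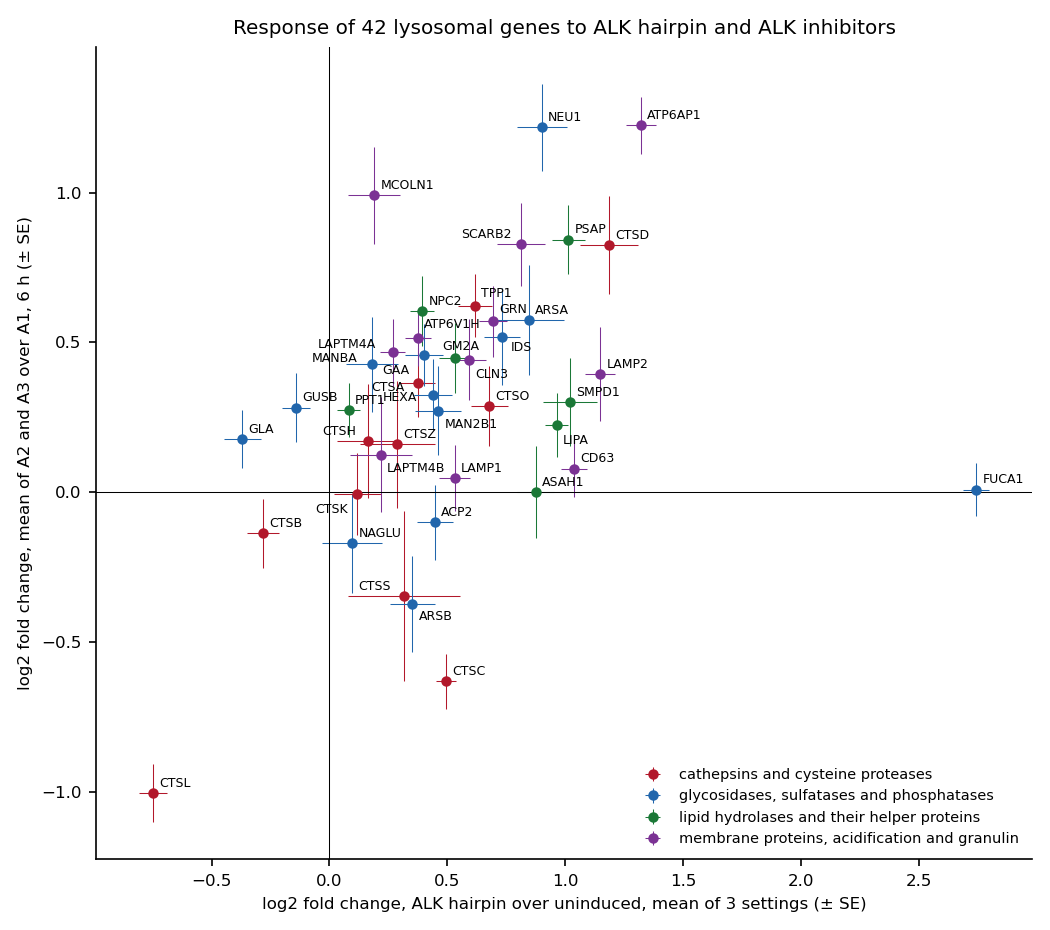
Log2 fold change of each of the 42 lysosomal genes with the ALK hairpin (mean of 3 settings, x axis) and with the ALK inhibitors (mean of A3 and A2 over A1, y axis), both ± SE and coloured by role. ATP6AP1 and NEU1 are high on both axes, FUCA1 is at 2.74 and 0.01, CTSC is at 0.49 and -0.63, and CTSL is lowest on both axes.

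To compare the 2 ways of removing ALK activity within TS cells, a fit added after seeing the data set the mean hairpin response at 84 h and 72 h against the mean response to A3 and A2 at 6 h. The hairpin response was larger for 14 members and smaller for 2 (background 16.3% and 15.9%). The method, the time and the cell pools (transduced or not) differ together and cannot be told apart. FUCA1 differed by 2.48 ± 0.10 (limma adjusted p = 2.47e-15), CTSC by 1.05, CD63 by 1.04, ASAH1 by 1.03 and LAMP2 by 0.96, and SMPD1, LIPA, ARSB, CTSD, ACP2, LAMP1, CTSO, PSAP and ATP6AP1 by 0.83 to 0.37. PSAP (0.37, limma adjusted p = 0.0438) lost the call in 17 of 29 alternatives: no filter, quantile normalization, the replicate block, no mean-variance trend, and leaving out any one of induced replicates 1 and 3 or uninduced replicate 1 at 84 h, induced 1 and 2 or uninduced 2 and 3 at 72 h, A3 1 and 3, A2 1 and 2, or A1 2 and 3. CTSD lost it without A1 replicate 3 (limma adjusted p = 0.06) and SMPD1 with the mean of its probe sets (limma adjusted p = 0.0528). GLA (-0.56) and GUSB (-0.53) were lower with the hairpin. MCOLN1 had a difference of -0.57 ± 0.24 (limma adjusted p = 0.0707), and CTSL of 0.17 ± 0.12 (limma adjusted p = 0.312).

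Other genes of the pathway were taken from lists, and their counts use the same tests, with 29.1% of all genes higher and 21.7% lower in the hairpin average and 21.9% higher and 16.3% lower in the inhibitor average. In the hairpin average 15 of 27 further lysosomal hydrolases and membrane proteins rose and 2 fell. LAPTM5, a transmembrane protein of blood cell lysosomes (3.15), MAN2B2, a mannosidase (1.91), PCYOX1, which degrades prenylcysteine (1.12), and the protease CTSF (1.09) had the largest changes. With the inhibitors 8 of 25 rose and 4 fell, led by TCIRG1, a V-ATPase subunit (1.25), and PCYOX1 (1.07), with NPC1, the cholesterol transporter that works with NPC2 (-1.03), and CLN8 (-0.79) lower. The share of this list that fell with the inhibitors was near that of all genes. Of 14 further V-ATPase subunits, 8 rose with the hairpin, ATP6V0D1 (0.77) and ATP6V1E1 (0.56) among them, and 2 fell. In TS cells 9 rose and 1 fell at 84 h (background 21.8% and 18.8%), and 8 rose and none fell at 72 h (18.9% and 15.2%). In Su-DHL1 cells 1 rose and 2 fell (13.9% and 10.7%). With the inhibitors 5 rose and 1 fell, ATP6V1E1 (0.78) and ATP6V1B2 (0.65) up and ATP6V0A2 (-0.93) down.

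Sorting genes and regulators were counted in the same way. Of 16 genes for mannose 6-phosphate tagging and sorting, 9 rose and none fell with the hairpin, led by the receptor IGF2R (1.36) and GNPTAB, the enzyme that makes the tag (0.63). With the inhibitors 7 rose and 1 fell, GNPTAB at 1.09 and IGF2R at 0.64. Of 15 regulators 5 rose and 2 fell with the hairpin, including FLCN (0.59), TSC2 (0.52), TFEB (0.47) and MITF (0.39), a share of higher genes near that of all genes. With the inhibitors 6 rose, including ZKSCAN3, a repressor of lysosomal genes (0.96), and TSC1 (0.81). TFEB itself was the 1 that fell with them (-0.57, limma adjusted p = 0.0378), called for A3 (-0.76, limma adjusted p = 0.0219) and not for A2 (-0.39, limma adjusted p = 0.238) against A1, while A3 against A2 was not called (-0.37, limma adjusted p = 0.718). Its hairpin and inhibitor responses in TS cells differed by 1.03 (limma adjusted p = 0.00128). Of 17 autophagy genes 8 rose and 1 fell with the hairpin, among them GABARAPL1 (1.23), the cargo receptor SQSTM1 (0.97) and MAP1LC3B (0.86), and 8 rose and 2 fell with the inhibitors, among them SQSTM1 (1.36), NBR1 (1.18) and ULK1 (1.09). Inhibitors of cathepsins split: with the hairpin 4 of 9 rose, CSTA (1.71) and CST7 (1.18) among them, and 3 fell, SERPINB4 (-2.75) and SERPINB3 (-1.56) among them, while with the compounds none of 8 rose and 3 fell. SERPINB3 and SERPINB4 are near-identical neighbours whose probe sets can share signal.

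Where members had more than 1 probe set, the further ones mostly moved alike. In the hairpin average 14 members had 31 further probe sets that passed the filter, of which 22 were called in the direction of the one used and 1, that of ASAH1, in the other. Each of the 13 called members among these had at least 1 further probe set called its way. In the inhibitor average 12 of 27 further probe sets of 12 members were called in the same direction and none in the other. IDS had 1 probe set against the others for A2 over U (-0.43), and for SCARB2 the 2 further probe sets disagreed between uninduced Su-DHL1 and TS cells (-0.50 and 0.74).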

How the data were processed

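Total RNA of 33 samples was measured on 1 array each. The authors deposited MAS5 signal, a linear intensity for each probe set, per the submitters' processing notes. MAS5 compares perfect-match with mismatch probes and scales each array. Its version is not given in the sources used here. Such scaling cannot show a change in total RNA per cell. All 22283 probe sets of the table set the filter, 68 control probe sets were then left out, and 19065 of the rest had 1 gene symbol in the platform annotation. Only such probe sets were named.

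Signals were taken as log2(signal + 11), 11 being the 20th percentile of all values (10.8) rounded. A probe set was kept where 3 or more arrays of a fit reached the array's 40th percentile, and of a gene's probe sets the one with the highest mean over the 33 arrays was used. Group means were fitted with limma 3.58.1 (lmFit, eBayes with trend) in R 4.3.3, in one fit for the 21 hairpin arrays (9101 genes) and one for the 12 inhibitor arrays (8594 genes). P-values are two-sided and Benjamini-Hochberg adjusted over all genes tested, and a gene was called below 0.05. The number of arrays, 3 per group, limits the precision. On simulated data with known changes, the TS 84 h test recovered 80 of 100 genes changed by 1 (log2) and 44 of 100 changed by 0.5, with 6 false calls among 9101, and A2 against A1 recovered 70 and 32, with 5 false calls among 8594. Only these genes were changed, with independent noise, whereas the real TS 84 h comparison called 1986 genes higher and 1713 lower. The adjustment depends on the share of changed genes, so these counts do not carry over to the real comparisons. Plots were made in Python 3.11.15 with matplotlib 3.10.9.

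Alternatives were pseudocounts of 1 and 50, no filter, quantile normalization, the mean of a gene's passing probe sets, a replicate block, no mean-variance trend, the ACTB ratio as covariate, only the groups compared, and leaving out each replicate. Per-array values are given for the 8 highest and the lowest called members of the hairpin average (at most 6; 3 were called) and for up to 4 highest and lowest called members of the line difference, the uninduced lines and the inhibitor average. From each list the up to 4 called genes with the largest change may be named. Other per-array values, TFEB under the inhibitors and the single marker genes named were chosen after seeing the data. The members and lists were chosen with earlier results of these data known. Same-numbered replicates did not deviate together, so the numbers were not taken to pair samples. Promoter windows are RefSeq's on GRCh38.p14, while the array values carry no genome build.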

Additional observations from a re-analysis of the deposited data

Results flagged for a closer look

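FUCA1 was the one member whose hairpin response differed between cell lines by the test of the difference itself. Its log2 fold change at 72 h was higher by 0.96 ± 0.14 (SE) in Su-DHL1 than in TS cells (limma adjusted p = 0.000158). The 3 induced and 3 uninduced arrays of each line showed no overlap, with mean signals of 745.2 induced and 68.6 uninduced in Su-DHL1 cells, and 1217 induced and 240.0 uninduced in TS cells. Under the alternatives the difference ranged from 0.62 to 1.09, with adjusted p-values of at most 0.01 by limma.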

How the results depend on the processing

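Leaving out each replicate in turn gave 32 to 33 called members in the hairpin average (32 with all arrays), 29 to 33 in TS cells at 84 h (33), 27 to 30 against A5M (30), 2 to 4 for A5M against uninduced A5 (4), 23 to 26 in TS cells at 72 h (28), 16 to 23 in Su-DHL1 cells (21), 1 to 2 for the line difference (1), 0 to 1 for the time difference (0), 12 to 14 for uninduced Su-DHL1 against TS (14), 16 to 23 in the inhibitor average (22), 17 to 23 for A3 (20) and 14 to 17 for A2 (19) against A1, 15 to 20 for A3 (19) and 12 to 19 for A2 (17) against U, 15 to 18 for the TS hairpin against the inhibitors (16), and 0 for A3 against A2 and A1 against U. With the ACTB ratio as covariate, 17 members were called in TS cells at 84 h, 14 at 72 h, 9 between uninduced lines, 8 in the inhibitor average, 11 for A3 and 5 for A2 against A1. A5M against uninduced A5 called 1 member without the mean-variance trend and 1 with only the groups compared. The line difference called 3 with the mean of probe sets and 2 with only the groups compared, and the time difference called 1 with each of quantile normalization, the replicate block and only the groups compared. MANBA in the inhibitor average turned to -0.043 with the ACTB ratio (limma adjusted p = 0.925); the cause was not tested. In the inhibitor average CTSA, ARSA, IDS, CLN3 and HEXA lost the call with the ACTB ratio and without A1 replicate 1. IDS also lost it with the mean of its probe sets and without A1 replicate 3. HEXA also lost it with no mean-variance trend and without any one of A3 replicates 1 and 2, A2 replicates 1 and 2 and A1 replicate 2. In the hairpin average CTSA, CTSB, GAA, HEXA, MAN2B1, ARSA and SCARB2 lost the call with the ACTB ratio and ARSB with quantile normalization, while the other 24 called members kept it under each of these alternatives. Same-numbered replicates correlated at -0.20 to 0.13 in their deviations from group means, and in 0 of 12 comparisons did every pair exceed 0.1 or every sample correlate best with its own number. With the replicate block 32 members were called in the hairpin average and 22 in the inhibitor average. Probe sets near background limit the precision for weakly expressed members such as CTSS.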
